A study of Oryctolagus cuniculus with 24 samples.

Results

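The genes described here are 49 genes of DNA replication and S phase, listed by name for what their products do, with no threshold on a measured value. A probe of the array could be named for 33 of them (81 probes), out of 28918 genes measured in all. Only 19623 of the 42089 probes on the array could be named. The count of all genes, and every share of all genes below, thus includes unnamed transcripts under their own identifiers. The other 16 (MCM2, GINS2, PRIM1, PRIM2, UHRF1, HELLS, RFC2, GMNN, SLBP, POLE2, CDC45, CDT1, EXO1, DSCC1, CHAF1B and BRIP1) were not matched to a probe and were not analysed here.

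Peripheral blood mononuclear cells (PBMCs), the lymphocytes and monocytes left after density separation of blood, came from the blood of 4 adult females of the New Zealand White breed (rabbits 1, 2, 4 and 5 below). Cells of each rabbit were cultured for 4 h (T4) or 24 h (T24) with buffer alone (mock), with lipopolysaccharide (LPS) at 1 µg/mL, or with PMA at 10 ng/mL plus ionomycin at 1 µg/mL (PMA-Ionomycin). Each of the 6 groups thus held 4 one-colour Agilent arrays, 1 per rabbit, and the same 4 animals contributed to every group. LPS is a bacterial cell wall product sensed by Toll-like receptor 4, whereas PMA switches on protein kinase C and ionomycin lets calcium into the cell, a pairing that bypasses the antigen receptor of lymphocytes. All groups shared the same medium with fetal bovine serum, and the mixed cells of each culture were measured together.

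Resting blood lymphocytes are not dividing. When they are activated they enter the cell cycle, and the E2F transcription factors then switch on the genes for copying DNA. The origin recognition complex and CDC6 load the MCM helicase on DNA, the helicase opens the duplex, polymerases copy the strands behind the clamp PCNA, ribonucleotide reductase and thymidylate synthase supply the deoxynucleotides, and chaperones bring histones to the new DNA.

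Levels are given as the log2 of a spot's median brightness minus the median of its array, averaged over the probes of a gene, so a level compares arrays for 1 gene and not genes with each other. A member was called when its adjusted p in limma's test was under 0.05. Between 51.4% and 62.3% of the spots on an array were well above background, and 22 of the 33 members were so, by most of their probes, on all 24 arrays. The 2 dimmest arrays were LPS T4 of rabbit 4 (51.4%) and PMA-Ionomycin T4 of rabbit 2 (52.6%). PMA-Ionomycin T4 of rabbit 2 was the lowest array of its group for 23 of the 33 members. The mock T4 array of the same rabbit, with 60.8% of its spots well above background, was likewise the lowest of its group for 21. Counts that change without the 2 dimmest arrays are given beside the results. CCNE2, CDC6, CDCA7, CLSPN, E2F8, UNG and WDR76 had no probe well above background on any array of at least 1 group.

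The oligonucleotides that read the members are shown here for some of the largest rises, to show what was measured and how independent the probes of a gene are. Each is 60 bases long, written 5′ to 3′ as on the array, and spans more than 60 bases of the genome (oryCun2), so that it crosses an intron and reads spliced RNA. The MCM6 probe lies at chr7:73385449-73389569 on the minus strand, and the RFC4 probe at chr14:78838741-78838879 on the plus strand. Capitals mark the base in which 2 PCNA probes at chr4:11722064-11722202 (minus strand) differ, and, for TYMS (chr9:61684040-61685305 and chr9:61684000-61685265, minus strand) and RFC5 (chr21:14385367-14386703 and chr21:14385363-14386699, minus strand), the bases that the pair shares.
MCM6: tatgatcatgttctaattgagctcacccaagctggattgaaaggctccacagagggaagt
RFC4: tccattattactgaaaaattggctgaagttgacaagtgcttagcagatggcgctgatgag
PCNA probe 1: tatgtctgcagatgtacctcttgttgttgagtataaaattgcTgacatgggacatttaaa
PCNA probe 2: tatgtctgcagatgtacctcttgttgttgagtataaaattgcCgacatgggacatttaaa
TYMS probe 1: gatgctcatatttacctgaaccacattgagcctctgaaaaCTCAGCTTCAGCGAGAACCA
TYMS probe 2: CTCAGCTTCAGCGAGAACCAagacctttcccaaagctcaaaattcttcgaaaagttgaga
RFC5 probe 1: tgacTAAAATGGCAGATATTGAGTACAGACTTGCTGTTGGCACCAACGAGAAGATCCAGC
RFC5 probe 2: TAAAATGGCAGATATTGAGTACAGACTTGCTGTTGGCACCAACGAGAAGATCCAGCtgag

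The PCNA pair differed by T43C, counted from 1 at the 5′ end, and gave log2 fold changes of 3.29 and 3.24 for PMA-Ionomycin against mock at T24. The TYMS pair shares 20 bases and gave 3.65 and 3.75, and the RFC5 pair shares 56 bases and gave 2.82 and 2.84. Probes of a gene that overlap this far repeat 1 measurement, and 14 of the 33 members had a single probe. Over all 81 member probes, taken 1 by 1, 74 were higher at T24 after PMA-Ionomycin and 0 lower. These include overlapping probes, so they are not 81 separate measurements, and the matching share over all probes is not given here. The probes of 1 member disagreed in size: those of POLA1 gave log2 fold changes of 0.44 and 1.68, and the first was well above background on only 4 of the 24 arrays while the second was so on all 24.

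After 24 h of PMA-Ionomycin, 29 of the 33 members were higher than in mock-stimulated cells and 0 were lower, against 22.2% higher and 11.5% lower of the 28801 genes tested. The median log2 fold change was 2.06 over the members (2.02 with members below background in a group set at their bound) and 0.03 over all genes. The rise was seen in every animal: the median over members was 1.84, 2.12, 2.12 and 2.03 in rabbits 1, 2, 4 and 5. In 28 members, all 4 PMA-Ionomycin arrays lay above all 4 mock arrays, which held for 21.2% of all genes. In 23 members they also lay above all 20 arrays of the other groups, which held for 10.6% of all genes. These are mixed cells, so more cells of a dividing type and more RNA per cell cannot be told apart.

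**Figure D1:**
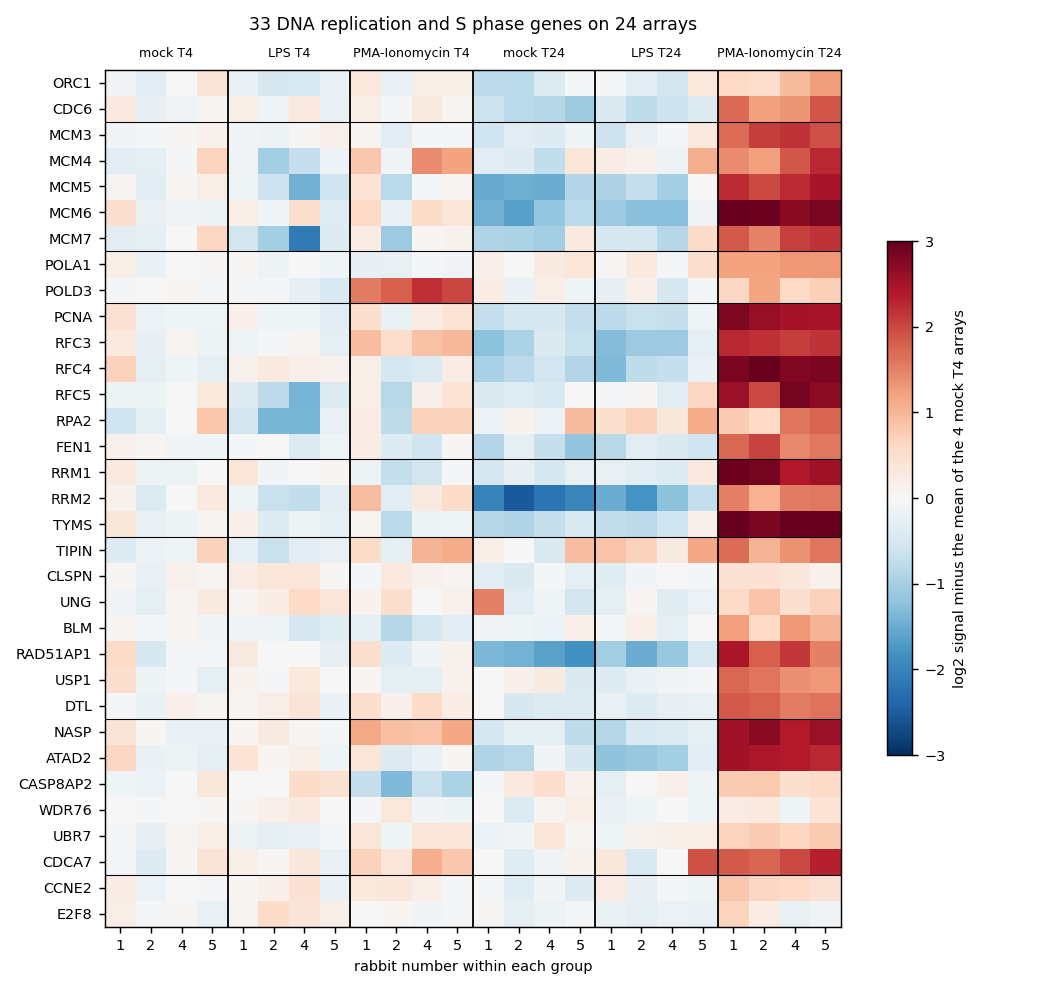
Level of the 33 measured members (rows, grouped by role between the horizontal lines) on the 24 arrays (columns, rabbit number under each), as log2 signal minus the mean of the 4 mock T4 arrays, with colours capped at 3 in either direction. The 4 PMA-Ionomycin T24 columns on the right are red in most rows, and in 23 members they lie above all 20 other arrays.

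The helicase held the largest rise. MCM6, a subunit of the MCM ring that unwinds DNA, stood at 6.92, 6.80, 6.56 and 6.69 in PMA-Ionomycin cells of rabbits 1, 2, 4 and 5 at T24, against 2.40, 2.23, 2.68 and 3.03 in their mock cells. The groups did not overlap, and the difference was 17.9-fold (log2 4.16 ± 0.24 SE, n = 4 rabbits, limma adjusted p = 5.98e-12). MCM5, another subunit, was read at 4.19, 3.94, 4.20 and 4.43 against 0.45, 0.50, 0.46 and 1.09, with every stimulated array above every mock array and an 11.9-fold difference (log2 3.57 ± 0.26 SE, n = 4). The remaining subunits MCM3, MCM4 and MCM7 rose by 5.02-fold, 3.89-fold and 5.80-fold, so that all 5 measured subunits were higher.

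Of the genes that load this helicase, CDC6 was not well above background on any mock T24 array and was so on all 4 PMA-Ionomycin arrays. A fold against such a group is a lower bound. It was taken from the mean of the brighter group over the mean, per array of the dimmer group, of the gene's own level or the lowest signal well above background, whichever was higher. CDC6 was thus at least 5.23-fold higher (limma adjusted p = 2.3e-11), with mock levels of -0.56, -0.73, -0.76 and -0.98 and PMA-Ionomycin levels of 1.80, 1.33, 1.42 and 1.97. ORC1, the largest subunit of the origin recognition complex, was 2.52-fold higher (log2 1.34 ± 0.21 SE, adjusted p = 1.24e-05). It stood at 0.64, 0.56, 1.00 and 1.30 after PMA-Ionomycin against -0.74, -0.77, -0.36 and 0.02 in mock cells. The rabbits differed in level, while the difference within a rabbit was between 1.28 and 1.37 in all 4.

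The clamp and its loader rose next to the helicase. PCNA, the ring that holds polymerases on DNA, was read at 8.75, 8.56, 8.43 and 8.41 after PMA-Ionomycin against 5.26, 5.43, 5.42 and 5.23 in mock cells. The arrays of the groups lay more than 3 log2 units apart in 4 of 4 rabbits (9.22-fold, log2 3.20 ± 0.17 SE, adjusted p = 1.09e-12). Among the small subunits of the clamp loader, RFC4 rose 13-fold, RFC3 7.97-fold and RFC5 7.19-fold, each with no overlap between groups. RFC4 was read at 6.40, 6.71, 6.35 and 6.40 against 2.59, 2.79, 2.99 and 2.69, and RFC3 at 7.0, 6.92, 6.81 and 6.89 against 3.50, 3.78, 4.30 and 4.06. FEN1, the nuclease that trims Okazaki fragments, was 5.44-fold higher (log2 2.44 ± 0.19 SE, limma adjusted p = 3.13e-10). It stood at 5.11, 5.42, 4.82 and 4.97 against 2.51, 3.12, 2.70 and 2.21 in mock cells. RPA2, a subunit of the protein that coats single-stranded DNA, had the smallest significant rise of this role (2.01-fold, log2 1.00 ± 0.36 SE, adjusted p = 0.0355), and its groups overlapped.

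Deoxynucleotide synthesis was higher in 3 of 3 genes. TYMS, which makes thymidylate, stood at 4.53, 4.14, 4.33 and 4.49 after PMA-Ionomycin against 0.47, 0.42, 0.60 and 0.87 in mock cells, a 13.7-fold difference with no overlap (log2 3.78 ± 0.20 SE, adjusted p = 1.26e-12). The subunits of ribonucleotide reductase, RRM2 and RRM1, were 12.2-fold and 8.27-fold higher than in mock cells. RRM2 stood at 4.17, 3.72, 4.24 and 4.25 against 0.66, 0.15, 0.48 and 0.68 in mock cells (limma adjusted p = 3.82e-11). The mock level of RRM2 had itself fallen from T4 to T24, as given below, so its difference at T24 includes that fall. RRM1 stood at 5.23, 5.16, 4.71 and 4.85 against 1.80, 2.05, 1.83 and 2.08 (limma adjusted p = 2.58e-12). In both genes the groups lay far apart.

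Both measured polymerase subunits rose. POLA1, the catalytic subunit of the polymerase that starts each new strand with primase, was 2.08-fold higher by the mean of its probes (log2 1.06 ± 0.12 SE, limma adjusted p = 1.3e-07). It stood at 1.29, 1.29, 1.38 and 1.38 against 0.23, 0.08, 0.36 and 0.44 in mock cells. The disagreement between its probes is given above. POLD3, an accessory subunit of polymerase delta, was 1.69-fold higher at T24 (log2 0.75 ± 0.16 SE, adjusted p = 0.000562), and was the only member called higher at both times whose rise was larger at T4.

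Among genes of fork protection and repair, 6 of 7 were higher. RAD51AP1, a DNA-binding protein of repair, was 11.4-fold higher, at 3.53 to 4.47 against 0.22 to 0.68 in mock cells. DTL, which targets the licensing factor CDT1 for destruction, rose 4.05-fold. USP1, which takes ubiquitin off PCNA, rose 2.84-fold, TIPIN, a fork protection factor, 2.36-fold, and BLM, a DNA helicase of recombination, 2.11-fold. CLSPN, which relays the replication checkpoint, stood at -0.49, -0.49, -0.57 and -0.79 against -1.26, -1.35, -0.99 and -1.22 and was at least 1.29-fold higher (adjusted p = 0.0002). It was dim throughout, with 1 of its 2 probes well above background on 3 of the 24 arrays and the other on 0. UNG, which cuts uracil out of DNA, was not called (log2 0.53 ± 0.28 SE, adjusted p = 0.172), and its mock T24 array of rabbit 1 stood at 0.63 where the other 3 lay between -1.43 and -0.99.

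Of the 6 measured genes of histone supply and chromatin, 4 were higher. NASP, a histone chaperone, rose 8.03-fold (7.37, 7.56, 7.24 and 7.45 against 4.34, 4.58, 4.58 and 4.09, adjusted p = 5.39e-13), and ATAD2, a chromatin ATPase with a bromodomain, rose 7.84-fold. CDCA7, a partner of the remodelling enzyme HELLS, was below background in mock cells at T24 and at least 3.81-fold higher. UBR7, a ubiquitin ligase, rose 1.59-fold. CASP8AP2, needed for processing of histone mRNAs, was not called (log2 0.43 ± 0.17 SE, adjusted p = 0.0525; 0.0402 with the rabbit as a block), nor was WDR76 (log2 0.24 ± 0.13 SE, adjusted p = 0.185). Of the S phase regulators, CCNE2, a cyclin that activates CDK2 at the entry to S phase, stood at -0.11, -0.28, -0.32 and -0.45 against -0.95, -1.27, -1.0 and -1.30 and was at least 1.57-fold higher (adjusted p = 3.87e-05). E2F8, a repressor among the E2F factors, was not called (log2 0.26 ± 0.15 SE, adjusted p = 0.223), and stood at -0.12, -0.57, -1.02 and -0.90 against -0.76, -1.09, -0.94 and -0.85, with overlap.

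**Figure D2:**
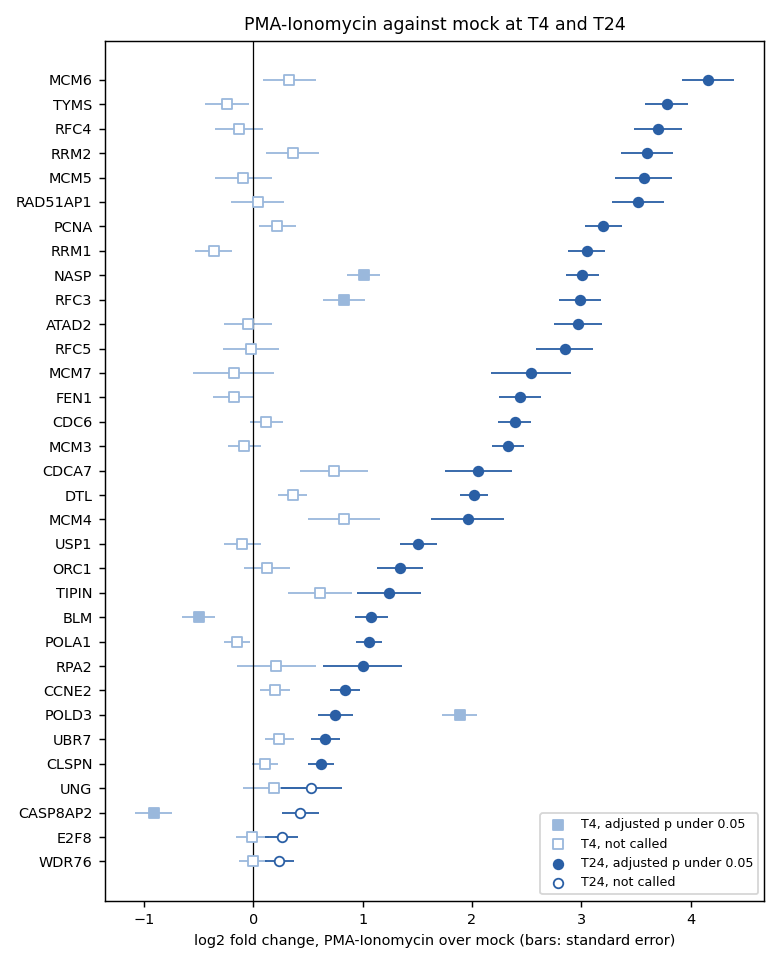
Log2 fold change of PMA-Ionomycin over mock for each of the 33 members at T4 (squares) and T24 (circles), with bars for the standard error and filled symbols for limma adjusted p under 0.05. At T24, 29 circles are filled and all lie above 0, while at T4 only 5 squares are filled.

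At T4 few members passed the test after the same stimulus. The call was higher for 3 of the 33 members and lower for 2, against 13.5% higher and 9.36% lower of all genes, and the members' median log2 fold change was 0.11 (0.0 with members below background in a group set at their bound) against 0.05 over all genes. POLD3 rose most. It stood at 2.29, 2.51, 2.90 and 2.73 in PMA-Ionomycin cells and at 0.67, 0.74, 0.77 and 0.68 in mock cells, a 3.70-fold difference without overlap (log2 1.89 ± 0.16 SE, adjusted p = 5.9e-09). NASP (2.01-fold, adjusted p = 1.56e-05) and RFC3 (1.78-fold, adjusted p = 0.00185) were also higher at T4, and rose further by T24.

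The members that fell at T4 were CASP8AP2 and BLM. CASP8AP2 stood at 0.92, 0.28, 0.93 and 0.64 after PMA-Ionomycin and at 1.46, 1.43, 1.59 and 1.93 in mock cells, lower in 4 of 4 rabbits (fell by 0.91 on the log2 scale, SE 0.17, adjusted p = 0.000219). BLM stood at 0.23, -0.33, 0.02 and 0.18 against 0.58, 0.48, 0.58 and 0.44 (fell by 0.50 on the log2 scale, SE 0.15, adjusted p = 0.0181), and lost its call without the 2 dimmest arrays (adjusted p = 0.0748) and without rabbit 1, 2 or 4. In neither gene did the groups overlap at T4. The 28 members that were not called had log2 fold changes between -0.36 and 0.83.

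With the rabbit as a block in the fit, 7 members were higher and 2 lower at T4, against 15.1% and 10.9% of all genes in that fit. The 4 that joined were MCM4 (log2 0.83 ± 0.22 SE, adjusted p = 0.00676), TIPIN (0.61 ± 0.22, adjusted p = 0.0417), CDCA7 (0.74 ± 0.26, adjusted p = 0.0415) and DTL (0.36 ± 0.13, adjusted p = 0.042). Without the 2 dimmest arrays and with no block, 7 members were higher and 1 lower, against 14.4% and 8.34% of all genes. MCM4 levels were 1.98, 1.08, 2.59 and 2.38 after PMA-Ionomycin and 0.84, 0.92, 1.12 and 1.84 in mock cells, so that each rabbit was higher while the groups overlapped.

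**Figure D3:**
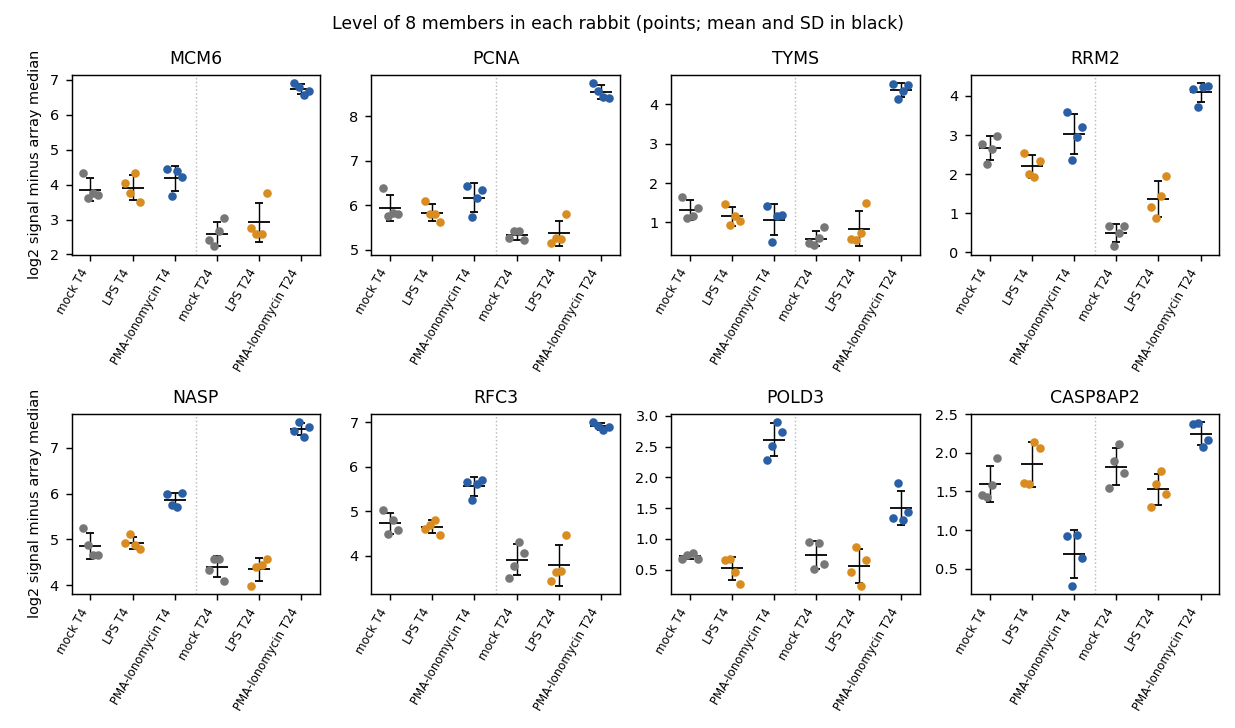
Level (log2 signal minus the array median) of 8 members in each of the 4 rabbits (points) in the 6 groups, with the mean and SD in black. MCM6, PCNA, TYMS and RRM2 are highest in PMA-Ionomycin T24, NASP and RFC3 step up at T4 and again at T24, POLD3 is highest at T4 (2.29 to 2.90), and CASP8AP2 is lowest in PMA-Ionomycin T4 (0.28 to 0.93).

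The difference between times was tested by the interaction of PMA-Ionomycin with time. The difference from mock was shifted upward at T24 relative to T4 for 25 of the 33 members and downward for 1, against 14.4% and 8.17% of all genes, with a median of 1.66 log2 units. The largest interactions were those of TYMS (4.02 ± 0.28 SE, adjusted p = 4.45e-10), MCM6 (3.83 ± 0.35), RFC4 (3.83 ± 0.31), MCM5 (3.66 ± 0.37) and RAD51AP1 (3.48 ± 0.34). CASP8AP2, lower at T4 and not called at T24, also had a positive interaction (1.34 ± 0.24, adjusted p = 0.000159). Of the 25 members, 24 were also called higher than mock at T24, and CASP8AP2 was the other. POLD3 alone ran the other way (interaction -1.14 ± 0.23, adjusted p = 0.000553). The interactions of CCNE2 and CLSPN (0.63 and 0.51) lost their calls without any 1 of the 4 rabbits. The interaction was not called for MCM4, RPA2, TIPIN, UBR7, E2F8, UNG and WDR76, whose values lay between 0.24 and 1.13. With the rabbit as a block MCM4 was called (adjusted p = 0.00892).

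Levels also fell in mock culture. From T4 to T24 without any stimulus, 11 of the 33 members fell and 0 rose, against 5.15% lower and 7.43% higher of all genes, and the median log2 change was -0.34 over members and -0.06 over all genes. RRM2 fell most, from 2.78, 2.27, 2.65 and 2.97 at T4 to 0.66, 0.15, 0.48 and 0.68 at T24. The groups did not overlap and the fall was close to equal in the 4 rabbits, between 2.12 and 2.30 log2 units (4.52-fold lower, SE 0.24 on the log2 scale, adjusted p = 8.62e-07). RAD51AP1 was 2.92-fold lower, MCM5 2.52-fold and MCM6 2.41-fold.

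The other members that fell in mock culture were CDC6 (at least 1.8-fold lower), RFC3 (1.76-fold), RFC4 (1.75-fold), FEN1 (1.68-fold), TYMS (1.65-fold), PCNA (1.52-fold) and NASP (1.37-fold). All 11 were lower in 4 of 4 rabbits, and in 13 of the 33 members every T24 mock array lay below every T4 mock array, which held for 7.03% of all genes. The count rested in part on 2 rabbits: without rabbit 1 it was 5, and without rabbit 4 it was 7. With the rabbit as a block ORC1 was also called (log2 -0.51 ± 0.14 SE, adjusted p = 0.0154). The fold changes against mock at T24 share these mock T24 arrays.

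A comparison that uses no mock array was made within PMA-Ionomycin cultures. From T4 to T24, 28 of the 33 members rose and 1 fell, against 20.3% and 13.4% of all genes, and the median log2 change was 1.43 over members and -0.10 over all genes. TYMS rose 9.85-fold (log2 3.30 ± 0.20 SE, adjusted p = 1.62e-11), RRM1 8.32-fold, RFC4 8.13-fold, MCM6 5.91-fold and RFC5 5.86-fold. RRM2, which had fallen most in mock culture, rose 2.09-fold here (log2 1.06 ± 0.24 SE, adjusted p = 0.00106), from between 2.35 and 3.6 at T4. All 11 members that fell in mock culture rose in PMA-Ionomycin culture. POLD3 fell by 1.11 on the log2 scale (SE 0.16, adjusted p = 5.63e-06) and was at T24 still above its mock level. MCM4 passed only narrowly (log2 0.86 ± 0.33 SE, adjusted p = 0.0477) and its groups overlapped; without rabbit 2, for example, its adjusted p was 0.161, and with quantile normalization 0.207.

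**Figure D4:**
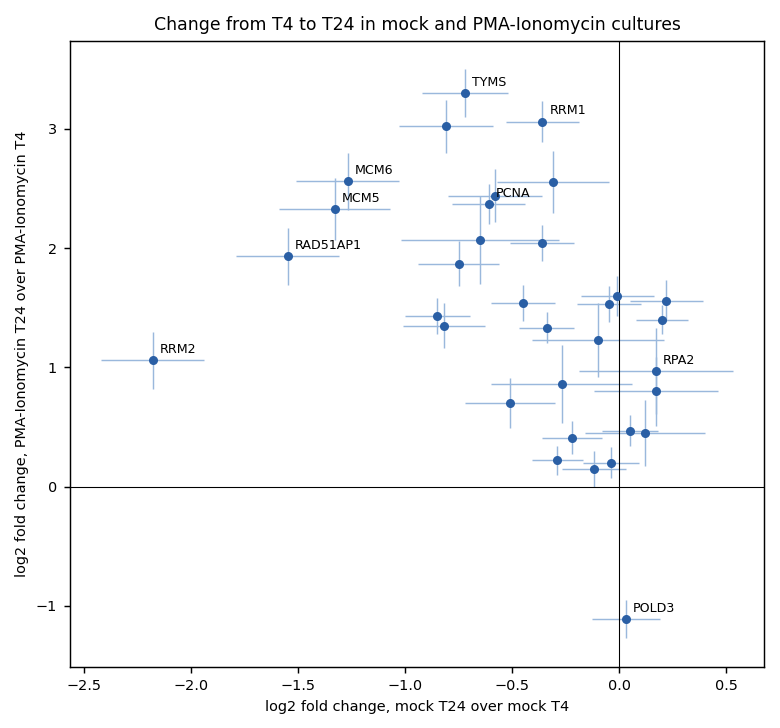
Log2 fold change from T4 to T24 in mock culture (horizontal axis) and in PMA-Ionomycin culture (vertical axis) for the 33 members, with bars for the standard error. Most points lie above 0 on the vertical axis and left of 0 on the horizontal one, RRM2 is the farthest left at -2.18, and POLD3 is the only point below 0 at -1.11.

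In the main fit, which had no rabbit block, LPS gave no call for any member at either time. With the rabbit as a block, members were called at both times, as given below. At T4 limma called 0 of the 33 members higher and 0 lower (4 at an unadjusted p under 0.05), against 0.0556% and 0.969% of all genes. At T24 it again called 0 and 0 (3 at an unadjusted p under 0.05), against 0.639% and 0.583%. The median log2 fold change over members was -0.01 at T4 and 0.17 at T24, where all genes had 0.06 and -0.03. With members below background set at their bound, the T24 median was 0.06. LPS and PMA-Ionomycin were compared with the same mock arrays.

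RRM2 came closest to a response to LPS at T24. Its levels were 1.17, 0.87, 1.45 and 1.96 after LPS and 0.66, 0.15, 0.48 and 0.68 in mock cells, so the groups did not overlap and 4 of 4 rabbits were higher (1.83-fold, log2 0.87 ± 0.24 SE, adjusted p = 0.0808). With the rabbit as a block the adjusted p was 0.00219, and without the 2 dimmest arrays it was 0.0461. The interaction of LPS with time called 1 of the 33 members, RRM2 again (log2 1.34 ± 0.34 SE, adjusted p = 0.0411), against 1.71% of all genes higher and 0.24% lower. RRM2 was lower with LPS than with mock at T4 in 4 of 4 rabbits and higher at T24 in 4 of 4. Leaving out any 1 rabbit ended its call.

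In the blocked fit, the LPS interaction was called for 7 members (MCM4, MCM5, MCM7, RRM2, RFC5, RPA2 and ORC1), all positive, where 5.1% of all genes were positive and 0.653% negative. At T4, 3 members were lower and 0 higher in that fit, where 3.98% of all genes were lower and 0.299% higher: MCM7 (-1.03 ± 0.27 SE, adjusted p = 0.0356), RPA2 (-0.88 ± 0.25, adjusted p = 0.0471) and RFC5 (-0.73 ± 0.21, adjusted p = 0.0483). MCM7 levels at T4 were 3.61, 3.16, 2.05 and 3.77 after LPS and 3.86, 3.87, 4.18 and 4.79 in mock cells, and the lowest of them, 2.05, was on the dimmest array. When the 2 dimmest arrays were dropped from the blocked fit, 0 members were lower at T4 (limma, smallest adjusted p of these 3 members 0.124) and 5 were called for the interaction, all positive. Over all genes, 0.104% were then lower and 0.0174% higher at T4, and the interaction was positive for 3.9% and negative for 0.621%, so the count of all genes also dropped at T4 without those arrays.

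After LPS at T24, rabbit 5 stood apart from the other 3. The median member was 0.41 log2 units above mock in rabbit 5, with 29 of 33 members higher, and between 0.01 and 0.12 in the other 3 rabbits. MCM6 after LPS was 3.75 in rabbit 5 and 2.59 to 2.76 in the others, PCNA 5.80 against 5.16 to 5.27, and CDCA7 1.02 against -1.35 to -0.54. No member had its lowest LPS T24 level in rabbit 5.

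Other genes of the same pathways were read from lists drawn up alongside the members. Of all genes, 13.5% were higher and 9.36% lower at T4 after PMA-Ionomycin, and 22.2% higher and 11.5% lower at T24. Of 36 further replication factors, 25 were tested, and after PMA-Ionomycin 18 were higher and 1 lower at T24, against 2 higher and 3 lower at T4. Those with the largest rise at T24 were ORC6, a subunit of the origin recognition complex (log2 4.34 ± 0.21 SE), POLE, the leading-strand polymerase (3.36 ± 0.30), and LIG1, the ligase that seals Okazaki fragments (3.09 ± 0.21). ORC6 was already higher at T4 (1.38 ± 0.21). MCM9 was the gene that was lower at T24. The 3 that were lower at T4 were POLD4, a small subunit of polymerase delta (-0.88 ± 0.22), ASF1A, a histone chaperone (-0.55 ± 0.12), and MCM9. No fold is given for MCM9, which was not well above background on any PMA-Ionomycin array.

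Nucleotide supply was read from 14 tested genes beyond the 3 members. Of these, 9 were higher and 1 lower at T4, and 12 were higher and 0 lower at T24. At T4 these were led by IMPDH2, the gate to guanine nucleotides (log2 2.16 ± 0.30 SE), and SHMT1, which feeds one-carbon units to thymidylate (2.15 ± 0.22). SAMHD1, which degrades deoxynucleotides, was the gene that was lower (-2.06 ± 0.33). At T24 the thymidine salvage and kinase genes TK1 (3.61 ± 0.28) and DTYMK (3.42 ± 0.30) and the purine gene GART (2.79 ± 0.16) led. SAMHD1 was also lower after LPS at T4 (-1.54 ± 0.33 SE, limma adjusted p = 0.0365).

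Of 13 tested genes of the S phase checkpoint and fork repair, 1 was higher and 2 lower at T4 and 12 were higher and 0 lower at T24, led by BRCA2 (log2 2.68 ± 0.19 SE) and CHEK1 (2.46 ± 0.15). Regulators of the passage from G1 to S moved both ways: 5 were higher and 7 lower of 23 at T4, and 10 higher and 4 lower at T24. Whether this short list differed from the shares of all genes given above was not tested. Of 5 tested inhibitors of cyclin-dependent kinases, CDKN1A was higher at T4 (2.16 ± 0.38), and CDKN2D (-1.65 ± 0.18), CDKN1B (-1.29 ± 0.21) and CDKN2C (-1.08 ± 0.21) were lower. At T24 CDKN1B (-1.42 ± 0.21) and CDKN2D (-0.50 ± 0.18) were lower and CDKN2C was higher (1.22 ± 0.21). FBXO5, which restrains the anaphase-promoting complex, was the most raised at T24 (2.21 ± 0.22). After LPS at T24, RMI2 of the checkpoint and repair list was higher (1.28 ± 0.31 SE, limma adjusted p = 0.0408). Apart from RMI2 and SAMHD1, no gene of the pathway lists was called after LPS.

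Genes of G2 and mitosis, the phases after S, were lower at T4 and higher at T24. Of 22 tested, 0 were higher and 18 lower at T4 (median log2 fold change -1.0), and 22 were higher at T24 (median 2.52), led by CDK1 (4.71 ± 0.28 SE), NCAPG (4.38 ± 0.25) and CCNB1 (4.29 ± 0.33). In mock culture 21 of the 22 fell from T4 to T24 (median -1.56), against 5.15% of all genes. The difference between this list and the members was not tested.

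**Figure D5:**
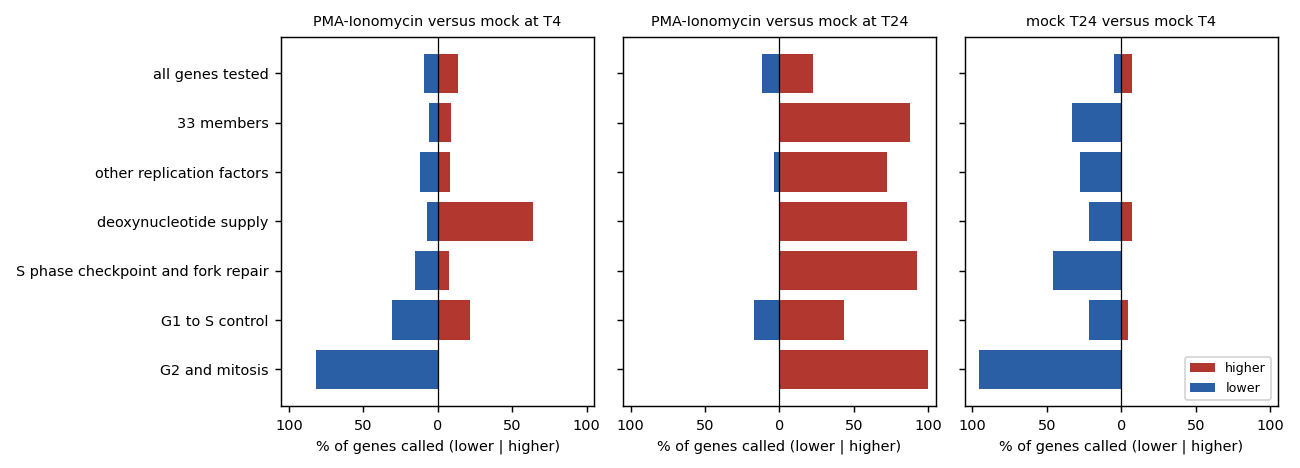
Percentage of genes called lower (left of 0, blue) and higher (right of 0, red) by limma in 3 comparisons, for all genes tested, the 33 members and 5 further lists. At T24 after PMA-Ionomycin the members and the lists of replication, nucleotide supply, checkpoint and mitosis are mostly higher, while at T4 mitosis genes are mostly lower (18 of 22) and nucleotide supply genes mostly higher (9 of 14).

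Genes listed as markers of blood cell types moved as well. Of all genes, 22.2% were higher and 11.5% lower at T24 after PMA-Ionomycin, and whether a marker list differed from all genes was not tested. Each list is given by its summed signal, in multiples of the array median, which follows the brightest markers of the list most. A marker is named as dim where most of its probes were not well above background on any array of the group. Of 7 tested monocyte markers, 6 were lower at T24 after PMA-Ionomycin, with sums of 59.4 to 116 against 348 to 870 in mock cells, and VCAN, one of the 6, was dim after PMA-Ionomycin. T cell markers summed to 18.8 to 22.4 after PMA-Ionomycin and 17.5 to 24.9 in mock cells at T24, with 1 of 11 higher and 3 lower. CD28, CD4 and CD247 were dim after PMA-Ionomycin, and CD28 was dim in mock cells at T24 too. B cell markers summed to 163 to 309 against 150 to 690, with 1 of 8 higher and 3 lower, and FCRL1 was dim after PMA-Ionomycin. PRF1, the only NK cell marker tested, was higher.

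Neutrophil markers summed to 1060 to 1890 after PMA-Ionomycin at T24 and 543 to 6890 in mock cells, with 4 of 7 lower. Which cells of these PBMC cultures gave that signal was not tested. CAMP was dim after PMA-Ionomycin at T24, and MMP8 was dim in all 6 groups. The platelet marker sum was 5.45 to 10.1 after PMA-Ionomycin and 3.8 to 6.73 in mock cells at T24, with 1 of 4 markers higher. GP1BA and TREML1 were dim after PMA-Ionomycin, and GP1BA and ITGA2B in mock cells. The erythrocyte marker sum was 5.28 to 11.8 against 5.69 to 33.7, with 1 of 4 lower. That marker, SLC4A1, and EPB42 were dim after PMA-Ionomycin, and EPB42 in mock cells too.

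Markers also moved in the comparisons with fewer called members. After PMA-Ionomycin at T4, 13.5% of all genes were higher and 9.36% lower. At T4 after PMA-Ionomycin, 3 of 7 monocyte markers were lower, led by CD14 (log2 -3.01 ± 0.33 SE), with sums of 36.8 to 53.9 against 136 to 302 in mock cells. Platelet markers were lower in 3 of 4, led by TREML1 (-3.25 ± 0.46), with sums of 8.11 to 20.5 against 47.5 to 121. B cell markers went both ways, with CD79B (-3.93 ± 0.53) and MS4A1 (-1.70 ± 0.23) lower and BLK (1.56 ± 0.34) and EBF1 (1.49 ± 0.19) higher. The B cell sum was 90.7 to 171 against 257 to 577. Of 11 T cell markers 1 was higher (sums of 22 to 36.1 against 23.7 to 37.1), and PRF1 was lower (-0.76 ± 0.25). Of 7 neutrophil markers 2 were lower (375 to 635 against 437 to 747), and none of the 4 erythrocyte markers was called (14.7 to 70.4 against 9.83 to 87.7). MPEG1, FCRL1, CD4, GP1BA, MMP8 and EPB42 were dim after PMA-Ionomycin at T4, and CD28, CD4, GP1BA, MMP8 and EPB42 in mock cells at T4.

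From T4 to T24 in mock culture, where 11 members fell, 3 of 4 platelet markers fell, with TUBB1 at -4.35 ± 0.38 and TREML1 at -4.03 ± 0.46, and the platelet sum went from 47.5 to 121 at T4 to 3.8 to 6.73 at T24. The other, ITGA2B, was dim at T24, so its fall is not given as a fold. Over the same time 5 of 7 monocyte markers rose, led by CYBB (3.27 ± 0.32), and 3 of 7 neutrophil markers rose, namely MMP9 (3.29 ± 0.46), CAMP (2.16 ± 0.35) and MPO (1.10 ± 0.25). The monocyte sum went from 136 to 302 at T4 to 348 to 870 at T24, and the neutrophil sum from 437 to 747 to 543 to 6890. T cell markers were lower in 2 of 11, B cell markers higher in 1 and lower in 1 of 8, and PRF1 and the 4 erythrocyte markers were not called. Over all genes, 7.43% were higher and 5.15% lower in this comparison.

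Within PMA-Ionomycin culture from T4 to T24, where 28 members rose, 2 of 7 monocyte markers rose and 1 fell (sums of 36.8 to 53.9 at T4 and 59.4 to 116 at T24). B cell markers rose in 2 of 8, with CD79B at 3.27 ± 0.53, and fell in 3 (90.7 to 171 and 163 to 309). T cell markers fell in 4 of 11, with IL7R at -1.63 ± 0.34 (22 to 36.1 and 18.8 to 22.4), and PRF1 rose (1.21 ± 0.25). Neutrophil markers fell in 2 of 7, with S100A8 at -4.51 ± 0.81, while MMP9 rose (375 to 635 and 1060 to 1890). Platelet markers fell in 1 of 4 (8.11 to 20.5 and 5.45 to 10.1) and erythrocyte markers in 3 of 4, with HBB2 at -2.71 ± 0.77 (14.7 to 70.4 and 5.28 to 11.8). Over all genes, 20.3% were higher and 13.4% lower in this comparison.

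After LPS at T4, CD14 (log2 -1.55 ± 0.33 SE) and CSF1R (-1.44 ± 0.35) were lower, and the monocyte sum was 56.7 to 102 against 136 to 302 in mock cells. No marker of the other 6 lists was called then, with sums of 76.3 to 344 for B cells, 19.1 to 36.1 for T cells, 1.03 to 2.41 for PRF1, 20.2 to 72.6 for platelets, 346 to 685 for neutrophils and 10.6 to 57.8 for erythrocytes. At T24 MPEG1 (-2.17 ± 0.41), MPO (-1.63 ± 0.25) and CAMP (-1.92 ± 0.35) were lower and S100A9 was higher (2.35 ± 0.57). The monocyte sum was then 306 to 715 and the neutrophil sum 5860 to 9090, while B cell (135 to 501), T cell (16.3 to 21.7), NK cell (1.65 to 2.59), platelet (4.24 to 5.82) and erythrocyte (8.03 to 36.2) markers gave no call. CD28, GP1BA, MMP8 and EPB42 were dim after LPS at both times, and EBF1 and SLC4A1 at T4. Of all genes, 0.0556% were higher and 0.969% lower at T4 after LPS, and 0.639% and 0.583% at T24. The part of all these marker shifts in the members' changes was not tested.

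The members' rise after PMA-Ionomycin was present on each of the 3 slides taken alone, with a median of 1.93, 1.77 and 2.39 log2 units at T24. On each slide the PMA-Ionomycin and mock T24 arrays, 1 or 2 of each, came from different rabbits, so slide and rabbit cannot be told apart there. At T4 the medians for PMA-Ionomycin against mock were -0.07, 0.02 and 0.51 on the same slides.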

How the data were processed

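RNA from 24 PBMC cultures was read on one-colour Agilent arrays. The authors scanned them with Agilent Feature Extraction 10.7.3.1 and deposited spot intensity values that were not normalized. Their deposited log2 table equalled log2 median signal centred on each array up to a constant per array. Here, outlier spots were left out, log2 median signals of 61657 non-control spots were centred on the array median and averaged per probe (42089) and gene (28918), named through accession, gene number or gene name for 19623 probes. A limma model (limma 3.58.1, R 4.3.3) with 6 group means was fitted to the 28801 complete genes, with Benjamini-Hochberg adjustment over all of them. It was also run on simulated data with known changes. The simulated arrays were independent, with no rabbit effect and no dim arrays, so that run could not check the fit for those features. Number of arrays limits precision. Samples of the same rabbit deviated together (median correlation 0.229 over 60 pairs, -0.0751 over 180 pairs of different rabbits), and they come from the same animals, so the rabbit block is a paired fit. The members and lists were chosen with earlier results of these data known. Members described singly were 14 representatives of the roles, the 5 largest called rises and falls of each comparison and other members by count, with further members and list genes added after their values were seen.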

Additional observations from a re-analysis of the deposited data

Results flagged for a closer look

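The effect of PMA-Ionomycin differed between T4 and T24 for 26 of the 33 members by the interaction test in limma. Beside TYMS (4.02), MCM6 (3.83), RFC4 (3.83), MCM5 (3.66), RAD51AP1 (3.48) and POLD3 (-1.14), the interactions on the log2 scale were 3.41 for RRM1, 3.24 for RRM2, 2.98 for PCNA, 2.62 for FEN1, 2.27 for CDC6, 2.16 for RFC3, 1.21 for ORC1, 1.20 for POLA1, 0.63 for CCNE2 and 0.51 for CLSPN. CCNE2 and CLSPN were well above background, by any probe, only in PMA-Ionomycin T24 among the 4 groups compared, and their interactions lost the call when any 1 rabbit was left out. CDC6 was not well above background on any mock T24 array. The interactions of CDC6, CCNE2 and CLSPN thus rest in part on levels below background. The effect of LPS differed between times for 1 member, RRM2 (1.34), against 1.71% of all genes higher and 0.24% lower. That call was lost when any 1 rabbit was left out. It was also lost with the processed signal, normexp, the deposited log2 table, only the arrays of the comparison or the slide as a block.

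In 7 of 126 groups of 4 arrays, the array farthest from the others lay further off, as a share of the group's range, than Dixon's limit, where chance gives about 1 in 20. Rabbit 1 was high in mock T4 for PCNA (6.40 against 5.76 to 5.82, share 0.911) and for MCM6 (4.34 against 3.63 to 3.75, share 0.84). Rabbit 5 was high in mock T24 for MCM5 (1.09 against 0.45 to 0.50, share 0.923) and RFC5 (1.91 against 1.45 to 1.53, share 0.841), and in LPS T24 for MCM6 (3.75 against 2.59 to 2.76, share 0.853). Rabbit 2 in PMA-Ionomycin T24 was high for RFC4 (6.71 against 6.35 to 6.40, share 0.85) and low for RRM2 (3.72 against 4.17 to 4.25, share 0.845).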

How the results depend on the processing

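The count of 29 members called at T24 after PMA-Ionomycin, and those of 26 for the interaction of PMA-Ionomycin with time and 29 from T4 to T24 in PMA-Ionomycin culture, stayed within 1.5 times under all 16 alternatives. The replicate block (rabbit) gave counts of 3 and 1 for LPS at the earlier and later time, 9 for PMA-Ionomycin at T4 and 7 for the LPS interaction, and moved the other counts by less than 1.5 times. LPS at T24 gave 1 member with the processed signal and with single probes. Requiring a fold change of at least 2 left 2 members at T4 after PMA-Ionomycin and 4 in mock culture. The LPS interaction gave 0 members with the processed signal, normexp, the deposited log2 table, only the arrays of the comparison or the slide as a block, and 2 with dim probes left out. Leaving out 1 rabbit gave 0 for LPS at each time and its interaction, 4 to 7 for early and 29 for late PMA-Ionomycin, 23 to 24 for its interaction, 5 to 10 for mock culture and 24 to 28 within PMA-Ionomycin culture. Leaving out the 2 dimmest arrays, chosen after seeing the data, gave 1 for late LPS (2 with the replicate block), 8 for early PMA-Ionomycin (9 with the block), and 5 for the LPS interaction with the block. Of 913 values of named members under the alternatives, 60 lost their call and 0 changed sign. The cause of these changes was not tested, except that a stricter fold threshold by construction calls no more members. Members near background bound their folds only from below.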
